A study of Homo sapiens with 8 samples.

Results

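The genes of the unfolded protein response and of the ATF4 stress response were followed in 3 human cancer cell lines after transfection of miRNAs or siRNAs. The set held 40 genes, chosen by symbol from the known pathway while earlier results of these data were known. All 40 had a probe among the 43317 genes of the array. They were divided by role into 22 genes of the ATF4 and amino acid arm and 18 genes of the endoplasmic reticulum (ER) arm. The cells were FaDu, a hypopharyngeal squamous cell carcinoma line, PC3, a prostate cancer line, and PANC-1, a pancreatic cancer line. FaDu cells received miR-99a-5p or miR-99a-3p, PC3 cells received miR-150-5p, miR-150-3p, miR-99a-3p or miR-100-3p, and PANC-1 cells received 1 of 2 siRNAs against the transcription factor FOXQ1, si-FOXQ1-1 or si-FOXQ1-2. The small RNAs were delivered with a lipid reagent, and the controls were mock cells of the same line, which the labels give as not transfected, so that the lipid and a small RNA as such are part of every difference. No array with a control miRNA or control siRNA was analysed here.

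Each of the 8 conditions was measured on 1 Agilent 2-colour array, with RNA of the mock cells in Cy3 and RNA of the transfected cells in Cy5. The log2 ratio of a gene is transfected over mock, so that −1 means 2-fold lower in the transfected cells. A gene was called measured on an array when its brightest probe was well above background in both channels, which held for 15771 to 17629 genes. With 1 array per condition and no dye swap there was no test of a condition, and a gene was counted as below −1 or above 1 by the size of its ratio alone. The error given with a ratio is the one the scanner software gave to the spot, and it leaves out the variation between cultures. Counts of members past 2 spot errors are given below without the share of all genes, which was not computed. In RNA from whole cultures, a lower level per cell and fewer cells that express a gene cannot be told apart. All 5 squamous markers were above background in mock FaDu cells, against 2 in PC3 and 1 in PANC-1. The 4 duct markers were above background in mock PANC-1 cells, but all 4 were so in FaDu and 3 in PC3 as well, so that they did not single out PANC-1. Of the 3 acinar markers, 0 were above background in PANC-1, 1 in FaDu and 2 in PC3. In mock PC3 cells all 4 epithelial markers were above background, and the prostate marker KLK3 was not.

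When unfolded proteins gather in the ER, the sensors IRE1 (gene ERN1), PERK (gene EIF2AK3) and ATF6 are activated. ATF6 and the spliced form of XBP1, the product of IRE1, induce the chaperones, folding enzymes and degradation factors of the ER. PERK phosphorylates the initiation factor eIF2, as does the amino acid sensor GCN2, and under this brake on translation the transcription factor ATF4 is made and induces genes of amino acid synthesis and import together with DDIT3 (CHOP), a regulator of stress-induced cell death.

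The transfected miRNAs whose mature sequence was at hand are shown because the results below separate both strands of 1 hairpin and a pair of related strands. Each is written 5′ to 3′ with the seed, bases 2 to 8, in capitals, as given by RefSeq on GRCh38.p14.
miR-99a-5p: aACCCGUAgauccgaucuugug
miR-99a-3p: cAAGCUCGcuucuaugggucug
miR-100-3p: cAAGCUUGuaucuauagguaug
The miR-99a strands lie on the plus strand of chromosome 21, at chr21:16539101-16539122 for miR-99a-5p and chr21:16539138-16539159 for miR-99a-3p, and miR-100-3p lies on the minus strand at chr11:122152240-122152261. miR-99a-3p and miR-100-3p have the same base at 17 of 22 positions and at 6 of the 7 seed positions, where they differ by U7C, with the base of miR-100-3p first and positions counted from the 5′ end. miR-99a-5p and miR-99a-3p share 2 of 7 seed positions. miR-150-5p and miR-150-3p are named only.

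The whole set was lower in FaDu cells transfected with miR-99a-3p. All 40 genes were measured there, all 40 had a log2 ratio below 0, and 34 lay below −1, among them 20 of the 22 genes of the ATF4 arm and 14 of the 18 genes of the ER arm. Over all genes measured on that array, 48.3% lay below 0, 5.48% below −1 and 7.68% above 1. The median log2 ratio was −1.77 for the ATF4 arm and −1.72 for the ER arm, against 0.03 over all 16482 genes. In 39 of the 40 members the distance of the deposited ratio from 0 was more than 2 spot errors, the exception being PSPH. For 37 of the 40 members this was the lowest ratio among the arrays on which the member was measured, and the other 3 were SLC7A5, SLC7A1 and DNAJB9. The 37 include VLDLR and EIF2AK3, which were measured on 6 and 7 arrays and may have been lower on an array that gave only a bound. The share of all genes with their lowest ratio on this array was not computed. This array also had the largest share of all genes below −1 among the arrays, so that the count of 37 has no background. The median over members on the other 7 arrays lay between −0.48 and −0.02.

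**Figure D1:**
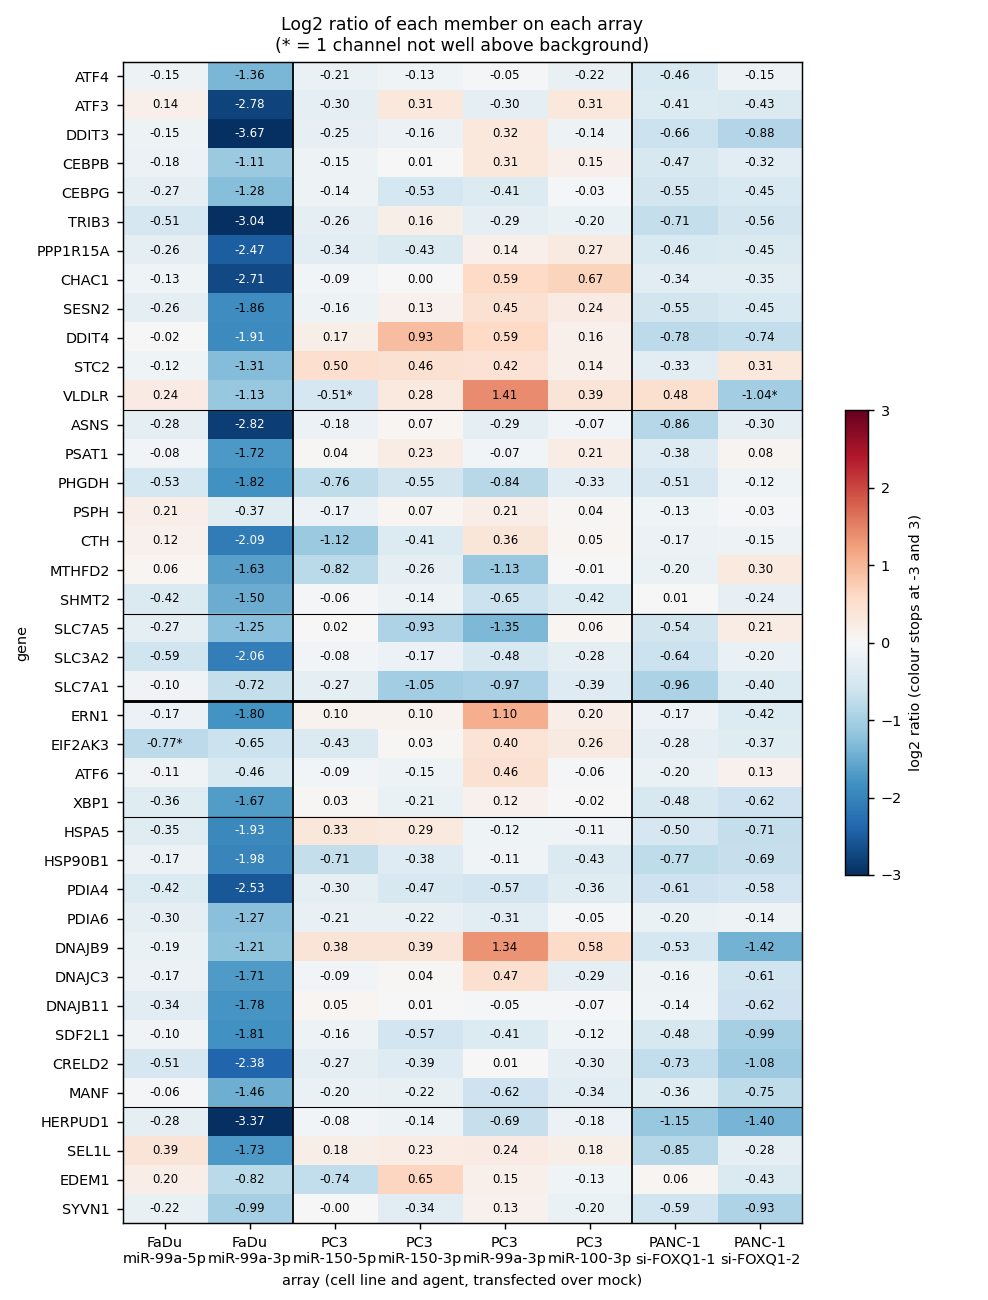
Log2 ratio (transfected over mock) of the 40 genes, in rows, on the 8 arrays, in columns, with blue for lower and red for higher in transfected cells. Thin lines part the role groups, the thick line parts the ATF4 arm (upper 22 rows) from the ER arm (lower 18 rows), and the FaDu miR-99a-3p column is blue in all 40 rows, from −0.37 for PSPH to −3.67 for DDIT3.

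Among the regulators and stress effectors of the ATF4 arm, all 12 lay below −1 in miR-99a-3p FaDu cells, and their median was −1.88. DDIT3, the transcription factor CHOP, was the lowest of the 40. Its log2 ratio was −3.67 (spot error 0.40) with miR-99a-3p in FaDu and −0.15 with miR-99a-5p. In PC3 it was −0.25 with miR-150-5p, −0.16 with miR-150-3p, 0.32 with miR-99a-3p and −0.14 with miR-100-3p, and in PANC-1 it was −0.66 with si-FOXQ1-1 and −0.88 with si-FOXQ1-2. DDIT3 was thus 12.7-fold lower on 1 array, where its signal was 9820 in mock and 773 in transfected cells, and within 2-fold of the mock cells on the other 7. It ranked 7 from the lowest among the genes measured on the FaDu miR-99a-3p array.

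TRIB3, a pseudokinase induced by ATF4 and DDIT3, stood at −3.04 (spot error 0.35) in FaDu with miR-99a-3p and lay between −0.71 and 0.16 on the other arrays. ATF3, a stress-induced transcription factor related to ATF4, had −2.78 (spot error 0.33) and lay between −0.43 and 0.31 elsewhere. ATF3 has 4 probes, of which 3 gave −2.78, −2.71 and −2.48 and 1, at chr1:212792519-212792578 (hg19), gave −0.03. CHAC1, an enzyme that breaks down glutathione, had −2.71 (spot error 0.32), and its second probe gave −2.87. PPP1R15A (GADD34), the phosphatase subunit that ends the phosphorylation of eIF2, had −2.47 (spot error 0.31). These genes stood 5.53- to 8.21-fold below the mock cells, and none of them was past 1 in size on another array.

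The mRNA of ATF4 itself was lower by less. Its log2 ratio in FaDu was −1.36 (spot error 0.24) with miR-99a-3p and −0.15 with miR-99a-5p, while in PC3 it was −0.21 with miR-150-5p, −0.13 with miR-150-3p, −0.05 with miR-99a-3p and −0.22 with miR-100-3p, and in PANC-1 −0.46 with si-FOXQ1-1 and −0.15 with si-FOXQ1-2. ATF4 was past −1 on 1 array, and its ratios near 0 had no settled sign. With normexp background correction and loess normalization in place of the scanner's own steps, it stood at 0.07 with miR-99a-5p in FaDu, and in PC3 at 0.01 with miR-150-5p, 0.04 with miR-150-3p and 0.14 with miR-99a-3p. With si-FOXQ1-2 in PANC-1 it stood at 0.07 by the same steps. Because ATF4 is controlled largely at translation, its mRNA does not give the amount of protein, which was not measured. CEBPB and CEBPG, basic leucine zipper proteins that pair with ATF4, had −1.11 and −1.28. CEBPB was printed at 10 spots, whose SD was 0.019 on that array. SESN2 and DDIT4, which restrain the growth kinase mTORC1, had −1.86 and −1.91, the secreted hormone STC2 had −1.31, and the lipoprotein receptor VLDLR had −1.13. With normexp and loess, STC2 stood at −0.89 and VLDLR at −0.77.

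Of the 7 enzymes of amino acid and one-carbon metabolism, 6 lay below −1 in FaDu cells with miR-99a-3p. ASNS, the asparagine synthetase and a classical ATF4 target, stood at −2.82 (spot error 0.33), which is 7.04-fold lower, and at −0.28 with miR-99a-5p. Its values in PC3 were −0.18 with miR-150-5p, 0.07 with miR-150-3p, −0.29 with miR-99a-3p and −0.07 with miR-100-3p, and in PANC-1 they were −0.86 with si-FOXQ1-1 and −0.30 with si-FOXQ1-2. ASNS therefore lay past −1 on a single array. CTH, which makes cysteine, followed in FaDu with −2.09. PHGDH and PSAT1, the enzymes of the first steps of serine synthesis, had −1.82 and −1.72, and the mitochondrial one-carbon enzymes MTHFD2 and SHMT2 had −1.63 and −1.50. PSPH, the last enzyme of serine synthesis, stood apart with −0.37 (spot error 0.21).

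The amino acid transporters were less uniform. SLC3A2, the heavy chain shared by several transporters, had −2.06 (spot error 0.28), its light chain SLC7A5 (LAT1) had −1.25, and the cationic amino acid transporter SLC7A1 had −0.72 in FaDu cells with miR-99a-3p. SLC7A5 and SLC7A1 were as low or lower in PC3, as given below.

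In the ER arm the chaperones and folding factors lay close together. All 10 lay below −1 in miR-99a-3p FaDu cells. Their median was −1.79, with a range from −2.53 for PDIA4, a protein disulfide isomerase, to −1.21 for DNAJB9, a co-chaperone that restrains IRE1. HSPA5 (BiP), the main ER chaperone, had −1.93 (spot error 0.27), or 3.80-fold lower, with a signal of 8984 in mock and 2365 in transfected cells, and it had −0.35 with miR-99a-5p. In PC3 it had 0.33 with miR-150-5p, 0.29 with miR-150-3p, −0.12 with miR-99a-3p and −0.11 with miR-100-3p, and in PANC-1 −0.50 with si-FOXQ1-1 and −0.71 with si-FOXQ1-2. Outside FaDu cells with miR-99a-3p, HSPA5 stayed within 1 of 0. HSP90B1, the ER member of the HSP90 family, had −1.98, and its second probe gave −2.35. CRELD2, a secreted ER stress protein, had −2.38, and MANF, a secreted factor that binds HSPA5, had −1.46. The co-chaperones DNAJC3, DNAJB11 and SDF2L1 had −1.71, −1.78 and −1.81, and PDIA6, a disulfide isomerase, had −1.27.

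Of the sensors, ATF6 and EIF2AK3 lay nearer to 0 than the chaperones. ATF6 had −0.46 (spot error 0.21) and EIF2AK3 (PERK) −0.65 (spot error 0.31) in FaDu with miR-99a-3p, where the EIF2AK3 probe was dim, at 101 in mock and 64.7 in transfected cells. With normexp and loess EIF2AK3 stood at −0.24, and against the mock cells of the other FaDu array at −0.10. ERN1 (IRE1) had −1.80 (spot error 0.26) by its brightest probe, which the array assigns to an Ensembl transcript of the gene at chr17:62116510-62116569 (hg19). The probe for the RefSeq transcript of ERN1 was not above background in both channels on 7 of the 8 arrays. XBP1 had −1.67 (spot error 0.26, SD between 10 spots 0.027) with miR-99a-3p and −0.36 with miR-99a-5p. In PC3 it had 0.03 with miR-150-5p, −0.21 with miR-150-3p, 0.12 with miR-99a-3p and −0.02 with miR-100-3p, and in PANC-1 −0.48 with si-FOXQ1-1 and −0.62 with si-FOXQ1-2. Spliced and unspliced XBP1 were not told apart.

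Of the genes for degradation of misfolded ER proteins, HERPUD1, a membrane protein of the degradation complex, had the second lowest ratio of the 40, −3.37 (spot error 0.38), or 10.4-fold lower in FaDu cells with miR-99a-3p. Its ratio was −0.28 with miR-99a-5p. In PC3 it was −0.08 with miR-150-5p, −0.14 with miR-150-3p, −0.69 with miR-99a-3p and −0.18 with miR-100-3p, and in PANC-1 −1.15 with si-FOXQ1-1 and −1.40 with si-FOXQ1-2. HERPUD1 was the only member below −1 on 3 arrays, namely that of FaDu with miR-99a-3p and those of PANC-1 with each siRNA. SEL1L, the adaptor of the ubiquitin ligase complex, had −1.73 in FaDu with miR-99a-3p, and its other probe measured there gave −2.58. SYVN1 (HRD1), the ligase itself, had −0.99, and EDEM1, which marks glycoproteins for degradation, had −0.82. With normexp and loess EDEM1 stood at −0.51.

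**Figure D2:**
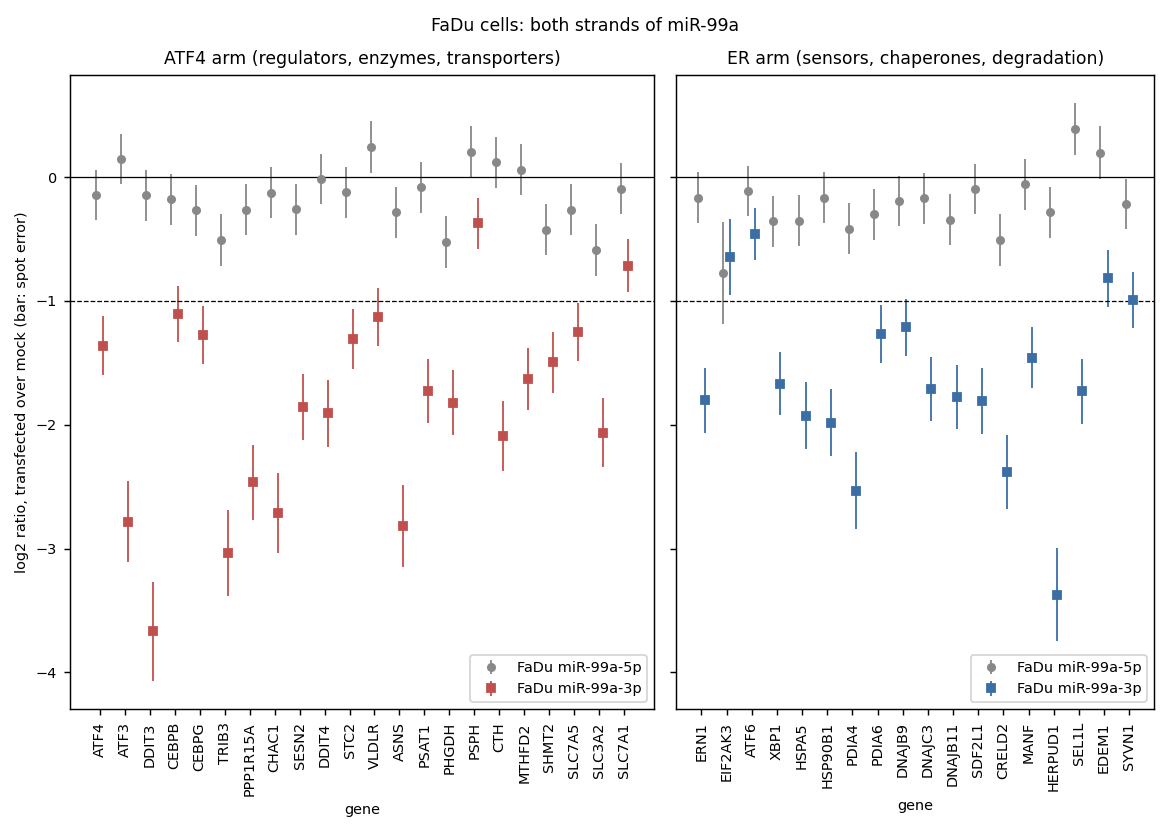
Log2 ratio (transfected over mock) of each member in FaDu cells with miR-99a-5p (grey circles) and with miR-99a-3p (coloured squares), with bars for the spot error, and the ATF4 arm on the left and the ER arm on the right. The squares run from −0.37 to −3.67 with 34 of 40 under the dashed line at −1, whereas no circle measured in both channels passes it.

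The other strand of the same hairpin gave much smaller ratios in the same cells. With miR-99a-5p in FaDu, 39 members were measured, none lay below −1 or above 1, and the medians were −0.15 for the ATF4 arm and −0.19 for the ER arm, while 0.165% of all measured genes lay below −1 and 0.894% above 1. Still, 32 of the 39 members were below 0, compared with 49.6% of all genes measured on that array. The lowest were SLC3A2 at −0.59, PHGDH at −0.53 and TRIB3 at −0.51 in the ATF4 arm and CRELD2 at −0.51, PDIA4 at −0.42 and XBP1 at −0.36 in the ER arm, and the highest were VLDLR at 0.24, PSPH at 0.21 and ATF3 at 0.14 in the former and SEL1L at 0.39, EDEM1 at 0.20 and MANF at −0.06 in the latter. For SEL1L the mean over its probes gave 0.15. EIF2AK3 was not well above background in the transfected cells, where it was at least 1.34-fold lower.

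Both FaDu arrays carried RNA of mock FaDu cells, so that the transfected cells could be set against either. For this, channel levels were normalized between arrays (normexp, loess and Aquantile). The mock levels of the 40 members on the miR-99a-3p array exceeded those on the miR-99a-5p array by a median of 0.12, from −0.30 for STC2 to 0.67 for HSP90B1, while the same difference over 16481 genes had a median of 0.01 and an SD of 0.13. Against their own mock cells, the miR-99a-3p cells had a median log2 difference of −1.61 and 32 of 40 members below −1. Against the mock cells of the other FaDu array they had a median of −1.50, and again 32 of 40 members lay below −1 and 40 of 40 below 0. DDIT3 illustrates this, with log2 levels of 12.98 and 13.04 in the mock channels, 12.79 in miR-99a-5p cells and 9.49 in miR-99a-3p cells. ATF4 had 16.64 and 17.13 in the mock channels, 16.71 in miR-99a-5p cells and 15.75 in miR-99a-3p cells, so that against the other mock its difference was −0.90.

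Further genes of both responses, listed from textbook knowledge and not part of the 40, were lower on the same array in smaller shares. These lists, too, were made while earlier results of these data were known. Of 39 further ATF4 and amino acid response genes measured in the miR-99a-3p FaDu cells, 24 lay below −1 and none above 1, and the median was −1.17. The lowest were PCK2, the mitochondrial enzyme of phosphoenolpyruvate synthesis, at −3.40, the stress protein NUPR1 at −2.51 and the angiogenic factor VEGFA at −2.41, and the highest was EIF2S1, the eIF2 subunit that is phosphorylated, at 0.69. Of 39 further unfolded protein response genes, 15 lay below −1 and none above 1, with a median of −0.75. The lowest of these were the lectin chaperone CANX at −2.36, the transcription factor CREB3L2 at −2.30 and the ER chaperone HYOU1 at −2.01, and the highest was EDEM3 at 0.67.

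The promoters of the members were searched for the elements that these transcription factors bind, within 250 bases before and 50 after the start site in RefSeq (GRCh38.p14), on both strands. The ER stress response element, bound by ATF6 and XBP1 beside NF-Y, was searched as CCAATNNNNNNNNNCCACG. It was present in 4 of 18 promoters of the ER arm, in 0 of the 20 promoters found for the ATF4 arm, and in 22 of 27305 promoters in all (0.0806%). A related form, ATTGGNCCACG, was present in 2 of 18 and 0 of 20, and in 15 of all promoters (0.0549%). The C/EBP-ATF element TGATGNAA, bound by ATF4 with a C/EBP partner, was present in 5 of 20 promoters of the ATF4 arm and in 1 of 18 of the ER arm, and in 1003 of all promoters (3.67%). In SLC3A2 and SLC7A1, which had −2.06 and −0.72 in FaDu with miR-99a-3p, it lay after the start site and is not printed below. The sequence TGACGTG, the core of the unfolded protein response element, was present in 0 of 38, and in 2.00% of all. PSPH and SHMT2 had no promoter entry. A match describes these letters and does not show binding, and a promoter without one may hold the element elsewhere or in another form.

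The elements upstream of the start sites are shown because they lie in genes whose values are given above. These genes all lay below −1 in FaDu cells with miR-99a-3p, as did 34 of all 40 members. Each element is printed on the strand of its gene in capitals, so that a reversed element reads as its complement.
ASNS (C/EBP-ATF element): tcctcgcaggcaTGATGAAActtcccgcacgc
ATF3 (C/EBP-ATF element): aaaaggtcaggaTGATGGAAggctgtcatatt
CHAC1 (C/EBP-ATF element, reversed): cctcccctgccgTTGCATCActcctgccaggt
HERPUD1 (C/EBP-ATF element, reversed): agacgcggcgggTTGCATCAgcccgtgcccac
HERPUD1 (ER stress response element, related form): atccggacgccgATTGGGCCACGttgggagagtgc
SDF2L1 (ER stress response element, related form, reversed): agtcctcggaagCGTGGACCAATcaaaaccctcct
HSPA5 (ER stress response element): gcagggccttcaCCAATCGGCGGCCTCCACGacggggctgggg
XBP1 (ER stress response element): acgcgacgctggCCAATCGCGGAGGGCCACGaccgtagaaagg
CRELD2 (ER stress response element, reversed): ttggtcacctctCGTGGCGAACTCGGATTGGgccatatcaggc
HSP90B1 (ER stress response element, farther from the start site): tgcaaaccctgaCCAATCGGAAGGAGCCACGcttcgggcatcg
HSP90B1 (ER stress response element, reversed, nearer to the start site): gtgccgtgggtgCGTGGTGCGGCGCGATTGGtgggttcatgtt
The windows lie at chr7:97872457-97872488 (minus strand) for ASNS, chr1:212565204-212565235 for ATF3, chr15:40953250-40953281 for CHAC1, chr16:56931954-56931985 and chr16:56932013-56932047 for HERPUD1, chr22:21642102-21642136 for SDF2L1, chr9:125241379-125241421 (minus strand) for HSPA5, chr22:28800591-28800633 (minus strand) for XBP1, chr22:49918542-49918584 for CRELD2, and chr12:103930204-103930246 and chr12:103930309-103930351 for HSP90B1. HERPUD1 held both kinds of element, with the C/EBP-ATF element starting 176 bases and the other 117 bases before the start site. In HSPA5 the element ran from 66 to 48 bases and in XBP1 from 52 to 34 bases before it.

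Genes outside the set with the same elements were described as well. With members left out, 8 genes with the ER stress response element were measured in miR-99a-3p FaDu cells, where their median log2 ratio was −0.95, against 0.06 for 9535 genes without it, and 3 of the 8 lay below −1, namely CANX, FICD at −1.42 and TMEM120A at −1.36. SERP1, another ER gene with the element, was at 0.36. CALR, CANX, FICD and SERP1 also stand on the list of further unfolded protein response genes described above, so that the groups overlap. Of 154 genes with the C/EBP-ATF element, 22 lay below −1 (14.3%), against 5.14% of 9389 genes without it, although the median with the element was 0.00. Of 9 genes with the related form of the ER stress response element, 2 lay below −1, and the median was −0.70. Genes with the core of the unfolded protein response element did not stand lower, as 4.38% of 251 lay below −1 against 5.32% of 9292 without it, with medians of 0.07 and 0.06. A larger share below −1 with the C/EBP-ATF element was not particular to this array, but on the others it rested on few genes. The shares were 1.34% (2 of 149) against 0.121% with miR-99a-5p in FaDu and 2.63% (4 of 152) against 0.371% with si-FOXQ1-1 in PANC-1. In PC3 they were 2.40% (4 of 167) against 0.792% with miR-150-5p and 4.85% (8 of 165) against 2.49% with miR-150-3p. With miR-99a-3p in PC3 they were nearly equal, at 4.97% (8 of 161) against 4.55%. With miR-100-3p and si-FOXQ1-2 no gene with the element lay below −1. The cause was not tested.

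In PC3 cells with the same miRNA, miR-99a-3p, the set as a whole lay near the values of all genes. The medians were −0.06 for the ATF4 arm and 0.06 for the ER arm, against 0.07 over all genes, and 20 of the 40 members were below 0, against 44.2% of all measured genes. Of the 40 members, 3 lay above 1 and 2 below −1, where 4.18% of all measured genes lay above 1 and 3.99% below −1. VLDLR had 1.41 (spot error 0.30), DNAJB9 1.34 (spot error 0.24) and ERN1 1.10 (spot error 0.23), and these same genes had −1.13, −1.21 and −1.80 in FaDu. VLDLR was dim in mock PC3 cells, with a signal of 78.3 against 208 in transfected cells, and normexp correction gave 0.69. For ERN1 the mean over both probes gave 0.84. Next in order were DDIT4 and CHAC1, both at 0.59, and in the ER arm DNAJC3 at 0.47 and ATF6 at 0.46.

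The genes below −1 in PC3 cells with miR-99a-3p were SLC7A5 at −1.35 (spot error 0.24) and MTHFD2 at −1.13 (spot error 0.23, SD between 9 spots 0.081), followed by SLC7A1 at −0.97 and PHGDH at −0.84. All 3 transporters were below 0 by more than 2 spot errors, with a median of −0.97. Of the 7 enzymes, whose median was −0.29, 5 were below 0, of which 3 by more than 2 spot errors. Of the 12 regulators, whose median was 0.32, 8 were above 0, of which 4 by more than 2 spot errors. The lowest of the ER arm were HERPUD1 at −0.69, MANF at −0.62 and PDIA4 at −0.57. Among the further genes, KLHL24 at 1.56 and CREB3L1 at 1.14 lay above 1 and CANX at −1.01 lay below −1.

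miR-100-3p, which differs from miR-99a-3p at 1 seed position, gave no member past 1 in size in the same line, where 0.944% of all measured genes lay above 1 and 0.334% below −1. Its medians were 0.04 for the ATF4 arm and −0.11 for the ER arm. In the ATF4 arm CHAC1 at 0.67, VLDLR at 0.39 and ATF3 at 0.31 were the highest and SHMT2 at −0.42, SLC7A1 at −0.39 and PHGDH at −0.33 the lowest. For ATF3 the mean over its measured probes gave 0.06. In the ER arm DNAJB9 at 0.58, EIF2AK3 at 0.26 and ERN1 at 0.20 were the highest and HSP90B1 at −0.43, PDIA4 at −0.36 and MANF at −0.34 the lowest. The arrays of these strands differed for SLC7A5, which had −1.35 with miR-99a-3p and 0.06 with miR-100-3p, for MTHFD2, which had −1.13 and −0.01, and for VLDLR, which had 1.41 and 0.39. With 1 array each, these differences had no test.

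With either strand of miR-150, a single member was past 1 in size in PC3. With miR-150-5p, CTH had −1.12 (spot error 0.23) and was the only member past 1 in size among 39 measured, where 0.630% of all measured genes lay above 1 and 0.783% below −1. MTHFD2 at −0.82 and PHGDH at −0.76 followed, and STC2 at 0.50, DDIT4 at 0.17 and PSAT1 at 0.04 were the highest of the ATF4 arm, whose median was −0.17. The ER arm had a median of −0.09 and ran from EDEM1 at −0.74, HSP90B1 at −0.71 and EIF2AK3 at −0.43 to SEL1L at 0.18, HSPA5 at 0.33 and DNAJB9 at 0.38. With normexp and loess HSP90B1 stood at −0.46 and EIF2AK3 at −0.10. VLDLR was not well above background in the transfected cells and was at least 1.43-fold lower. With miR-150-3p, SLC7A1 had −1.05 (spot error 0.23) and was the only member past 1 in size, where 2.62% of all measured genes lay above 1 and 2.28% below −1. By normexp correction no member lay below −1 on that array. SLC7A5 at −0.93 and PHGDH at −0.55 followed, and DDIT4 at 0.93, STC2 at 0.46 and ATF3 at 0.31 were the highest of the ATF4 arm, whose median was −0.06. The ER arm had a median of −0.15 and ran from SDF2L1 at −0.57, PDIA4 at −0.47 and CRELD2 at −0.39 to HSPA5 at 0.29, DNAJB9 at 0.39 and EDEM1 at 0.65.

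**Figure D3:**
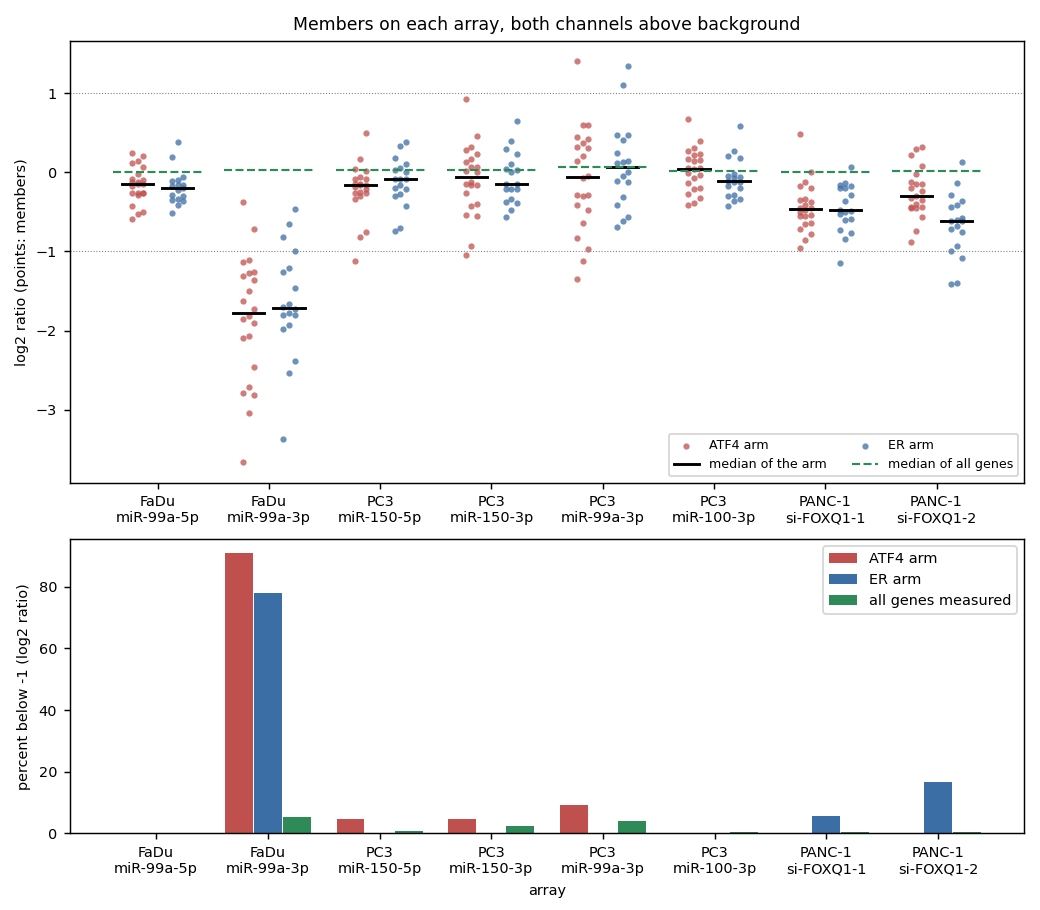
Upper panel: log2 ratio (transfected over mock) of each measured member on each array, in red for the ATF4 arm and blue for the ER arm, with black bars for the median of each arm and green dashes for the median of all measured genes. Lower panel: percent of measured genes below −1 in each arm and over all genes, where FaDu with miR-99a-3p reaches 90.9% and 77.8% against 5.48% and no arm on another array passes 16.7%.

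In PANC-1 cells with either siRNA against FOXQ1, most members were slightly lower than in mock cells. FOXQ1 itself had a log2 ratio of −2.16 (spot error 0.29) with si-FOXQ1-1 and −2.12 (spot error 0.28) with si-FOXQ1-2. With si-FOXQ1-1, 37 of 40 members were below 0, against 49.3% of all measured genes, with medians of −0.46 for the ATF4 arm and −0.48 for the ER arm. Of these members, 23 were below 0 by more than 2 spot errors, a share that was not computed over all genes. HERPUD1 at −1.15 (spot error 0.23) was the only member past 1 in size, where 0.366% of all measured genes lay below −1 and 0.884% above 1. SLC7A1 at −0.96, ASNS at −0.86, SEL1L at −0.85, DDIT4 at −0.78 and HSP90B1 at −0.77 were the next lowest. The highest were VLDLR at 0.48, SHMT2 at 0.01 and PSPH at −0.13 in the ATF4 arm and EDEM1 at 0.06, DNAJB11 at −0.14 and DNAJC3 at −0.16 in the ER arm.

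With si-FOXQ1-2, 34 of 39 measured members were below 0, against 47.9% of all measured genes. The medians were −0.30 for the ATF4 arm and −0.62 for the ER arm. DNAJB9 at −1.42 (spot error 0.24), HERPUD1 at −1.40 (spot error 0.24) and CRELD2 at −1.08 (spot error 0.23) lay below −1, where 0.374% of all measured genes lay below −1 and 0.344% above 1. All 10 chaperones were below 0 with either siRNA, with medians of −0.49 and −0.70. SDF2L1 and SYVN1 followed at −0.99 and −0.93, and ATF6 at 0.13, PDIA6 at −0.14 and SEL1L at −0.28 were the highest of the ER arm. In the ATF4 arm DDIT3 at −0.88, DDIT4 at −0.74 and TRIB3 at −0.56 were the lowest and STC2 at 0.31, MTHFD2 at 0.30 and SLC7A5 at 0.21 the highest. VLDLR was at least 2.05-fold lower, since it was not well above background in the transfected cells. With si-FOXQ1-1 and si-FOXQ1-2 the enzymes of amino acid metabolism had medians of −0.20 and −0.12 and the 3 transporters of −0.64 and −0.20, and these differences between the siRNAs had no test. Among the further genes, FICD, an ER enzyme that modifies HSPA5, was the lowest of its list with both, at −1.05 and −0.97.

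The mock cells of the 3 lines could be compared with a test, since PC3 had 4 mock channels and FaDu and PANC-1 had 2 each. Log2 levels were fitted with limma over 22753 genes, with Benjamini-Hochberg adjustment, and a gene was called at an adjusted p under 0.05 and a difference of at least 1. Nothing states that the mock RNAs came from separate cultures, so that these p-values measure only the spread between channels, which may be technical. The SD of a member's mock level had a median of 0.081 in PC3, 0.095 in FaDu and 0.029 in PANC-1. The PC3 channels fell into pairs for DDIT4, which had log2 levels of 9.94 and 9.96 on the miR-150-5p and miR-150-3p arrays and 10.72 and 10.66 on the miR-99a-3p and miR-100-3p arrays.

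Mock FaDu cells held more of these transcripts than mock PC3 cells. Of the 40 members, 33 were called higher and 0 lower, where 11.0% of all genes tested were called higher and 12.9% lower, and all 40 differences were above 0. All 22 genes of the ATF4 arm and 11 of the 18 genes of the ER arm were called, with median differences of 2.10 and 1.14 against 0.01 over all genes. Without the PC3 channels of the miR-150 arrays 32 were called higher, and without those of the miR-99a-3p and miR-100-3p arrays 34 were.

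The largest differences between mock FaDu and mock PC3 were those of DDIT4, with mean log2 levels of 15.29 and 10.32, a difference of 4.97 ± 0.22 (SE) and an adjusted p of 1.43e-08 by limma, and of CRELD2, with means of 16.60 and 12.51, a difference of 4.09 ± 0.12 and an adjusted p of 6.58e-10 by limma. SLC7A5 differed by 3.69, ATF3 by 3.15, SESN2 by 2.96, ASNS by 2.77, DDIT3 by 2.67, ATF4 by 1.93, XBP1 by 1.37 and HSPA5 by 1.17, each with an SE between 0.056 and 0.13. The 7 members not called were all of the ER arm: EIF2AK3, MANF, SYVN1, ERN1, EDEM1, DNAJB9 and SDF2L1, with differences from 0.04 to 0.96.

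In mock PANC-1 cells the arms parted. Against mock PC3, 15 members were called higher and 0 lower, where 8.35% of all genes were called higher and 9.27% lower, and all 15 belonged to the ATF4 arm, whose median difference was 1.21, while the ER arm had a median of 0.24. At an unadjusted p under 0.05 in the same fit, 6 members were lower in PANC-1, by 0.91 at most. Their adjusted p by limma was at most 0.039, for HSP90B1, so that only their size kept them from being called. Of the members called higher in PANC-1 than in PC3, the largest were DDIT4 with a difference of 3.31, SESN2 with 2.71, DDIT3 with 2.62 and ATF3 with 2.61. Against mock FaDu, 0 members were called higher in PANC-1 and 21 lower, 9 in the ATF4 arm and 12 in the ER arm, where 11.4% of all genes were called higher and 10.2% lower. At an unadjusted p under 0.05, 3 members were higher in PANC-1, by 0.32 at most. Their adjusted p by limma was at most 0.031, for SYVN1, and again only their size kept them from being called. CRELD2 had a difference of −3.32, SHMT2 of −2.26 and SEL1L of −2.09. DDIT3 differed by −0.06 ± 0.06 (SE) between PANC-1 and FaDu, with an adjusted p of 0.47 by limma.

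The level in FaDu cells after miR-99a-3p can be set beside that of mock PC3 cells. Over the ATF4 arm the median log2 level was 2.10 above the mean of mock PC3 in mock FaDu cells, 1.92 above it in FaDu cells with miR-99a-5p and 0.55 above it in FaDu cells with miR-99a-3p, of which 13 of 22 genes were within 1 of mock PC3. Over the ER arm the medians were 1.14, 0.91 and −0.22, and 15 of 18 genes were within 1 after miR-99a-3p. DDIT4 and SLC7A5 were the highest of the ATF4 arm, at 3.21 and 2.52 above mock PC3, and CRELD2 of the ER arm, at 1.93. The lowest of the 40 were HERPUD1 and TRIB3, at −1.48 and −1.36. These differences set Cy5 against Cy3 and were not tested.

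**Figure D4:**
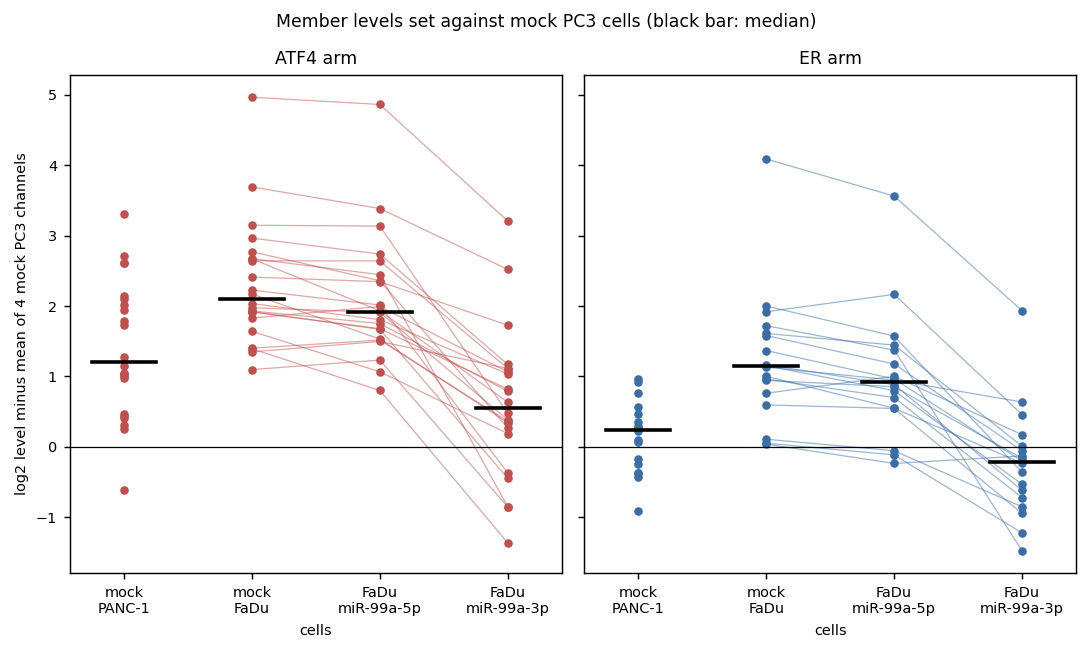
Log2 level of each member minus its mean over the 4 mock PC3 channels, for mock PANC-1, mock FaDu, FaDu with miR-99a-5p and FaDu with miR-99a-3p cells, with lines joining a gene over the FaDu cells and black bars for medians. In the ATF4 arm (left) the median is 2.10 in mock FaDu and 0.55 after miR-99a-3p, and in the ER arm (right) it is 1.14 and −0.22.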

How the data were processed

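Total RNA of mock (Cy3) and transfected (Cy5) cells was hybridised to 8 arrays of 1 slide. The authors processed the scans with Agilent Feature Extraction 10.7.3.1, per the file headers, which subtracted the background and normalized the dyes within each array. The deposited log10 ratios and intensities of each spot were used, and the deposited log10 values of the series table are the same ratios. No scaling between arrays was applied by the authors.

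Ratios were multiplied by 3.32 to the log2 scale. Control spots and outlier-flagged spots (81 to 178 per array) were left out, replicate spots were averaged per probe, and each gene took its brightest probe over all arrays. A gene dim in 1 channel received a bound. Mock levels were taken from limma 3.58.1 (R 4.3.3; normexp with offset 50, loess, Aquantile), filtered to genes with Cy3 above background on at least 2 arrays. This fit was tested on simulated data. Other steps used Python 3.11.15.

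The members and lists were chosen with earlier results of these data known. Named were members past 1 in size, the 3 highest and 3 lowest of each arm, a few fixed genes (ATF4, DDIT3, ASNS, HSPA5, XBP1) and called members. Alternatives changed the normalization, filter, probe rule, flags, centring and channels left out. The precision is limited by the number of arrays.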

Additional observations from a re-analysis of the deposited data

Results flagged for a closer look

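For 3 members, miR-99a-3p cells were more than 2-fold above mock cells in PC3 and more than 2-fold below them in FaDu. The share of all genes that did so was not computed. Since 34 of the 40 members lay below −1 in FaDu, most members above 1 in PC3 would be flagged. In PC3, 7.5% of the members lay above 1, against 4.18% of all measured genes. The log2 ratio in PC3 exceeded that in FaDu by 2.54 for VLDLR, by 2.90 for ERN1 and by 2.56 for DNAJB9. With 1 array in each line the difference was not tested. The probes limit the first and second of these. VLDLR was dim in mock PC3 cells. The RefSeq probe of ERN1 gave 0.59 in PC3, where it was above background in both channels, and was not so in FaDu.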

How the results depend on the processing

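Medians, counts and mock calls were recomputed under each alternative. Of 290 recomputations of these summaries under the settings chosen at the outset, 289 stayed within the spot error or within 1.5 times the count. The exception was SLC7A1 in PC3 with miR-150-3p, as 0 members lay below −1 there by normexp and loess. The settings included the deposited series values, which are the same ratios and could not differ. Medians near 0 could hardly leave the tolerance, which was 0.21 for the ATF4 arm in PC3 with miR-99a-3p, where the median was −0.06. The sign was checked only for medians past 1 in size, those of FaDu with miR-99a-3p, and none changed. For FaDu with miR-99a-3p these settings gave 32 to 35 members below −1. Among alternatives chosen after seeing the data, the other FaDu mock moved the ER arm median to −1.41, and leaving out the PC3 mock channels of the miR-150 arrays called 1 member lower in PANC-1 than in PC3. The cause was not tested. Leaving out each mock channel in turn gave 31 to 34 members higher in FaDu than in PC3, 14 to 16 higher in PANC-1 than in PC3, and 19 to 23 lower in PANC-1 than in FaDu, with 0 in the opposite directions. With the processed Cy3 signal minus its 75th percentile, member counts stayed within 1.5 times (36, 18 and 23), while over all genes 4494 were called higher and 4737 lower in FaDu than in PC3 instead of 2507 and 2940, 3640 and 3803 in PANC-1 than in PC3 instead of 1901 and 2110, and 4377 and 4080 in PANC-1 than in FaDu instead of 2590 and 2317. A line left with 1 channel was assumed to vary like the others. No paired analysis was possible because the arrays carry no replicate numbers and none repeats a condition. Signals near background limit VLDLR, EIF2AK3 and EDEM1.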
